A study of Macaca mulatta with 4 samples.

Results

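The 10 core circadian clock genes CLOCK, PER1, PER2, PER3, CRY1, CRY2, NR1D1, NR1D2, RORA and DBP were followed in the amygdala of infant rhesus macaques (Macaca mulatta). They were taken by name, as the rows whose Ensembl macaque gene ID carries one of these symbols. Each symbol matched 1 of the 35395 gene IDs in the count table, and all 10 passed the filter on low counts, as did 15417 genes in all. The sevoflurane group held 1 wild type female library and 1 wild type male library. These animals had breathed the inhaled anaesthetic sevoflurane at about 2.5 to 3% on 3 occasions of 4 hours, near postnatal days 7, 21 and 35. The amygdala was collected right after the last of these. The control group held 1 wild type female library and 1 wild type male library. The sources used here do not say what the control animals breathed or how old they were. Nor do they give the time of day at which tissue was taken. Sevoflurane, handling, clock time and any other difference between the groups thus cannot be told apart. With 1 library per sex in a group, the spread within a group includes any difference between the sexes.

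The clock is a feedback loop of transcription. CLOCK pairs with BMAL1, here named ARNTL, and the pair binds E-box elements and activates the PER, CRY, NR1D and DBP genes. PER and CRY proteins return to the nucleus and repress that pair, while NR1D proteins repress and ROR proteins activate ARNTL through a shared element. DBP is an output factor that binds D-box elements, and its transcript cycles widely in many tissues. In brain regions outside the suprachiasmatic nucleus, the amygdala among them, these genes also cycle, and some of them answer to glucocorticoids and to neuronal activity.

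Reads on genes ranged from 12477047 to 16293371 per library. Levels below are CPM, reads scaled to library size, with TMM factors, a method that assumes most genes do not differ. The 2 conditions differed widely, with 3282 genes called higher in sevoflurane libraries (21.3% of those tested) and 2996 called lower (19.4%), 40.7% in all. A call means an adjusted p under 0.05 in edgeR's quasi-likelihood test with Benjamini-Hochberg adjustment over all tested genes. Of the calls, 52.3% were higher, and 63.3% were with library totals in place of TMM, which moved the median log2 fold change of all genes to 0.24. The 6 neuronal markers summed to 5722 and 6530 CPM in sevoflurane libraries, against 5743 and 5739 CPM in control libraries, but they did not move alike. SYT1 was called higher, at 840.2 and 815 CPM in the sevoflurane female and male libraries, against 36.2 and 7.36 CPM in the control female and male libraries, while RBFOX3 and GAP43 were called lower. Astrocyte and endothelial markers split as well. SLC1A2 was called higher, at 369 and 507 CPM in the sevoflurane female and male libraries, against 28.6 and 15.9 CPM in the control female and male libraries. GFAP and ALDH1L1 were called lower. FLT1 and CDH5 were called higher and CLDN5 lower. The source of these splits was not tested. Hypothalamic SIM1 and SIX6 had 0 or 1 read in each library, but AVP and HCRT were called lower in sevoflurane. AVP had 10 and 4 reads in the sevoflurane female and male libraries, against 34 and 74 in the control female and male libraries. HCRT had 6 and 1 reads against 35 and 34 in the same order. TCF7L2 and LEF1 of the same list were not called. The control male library stood apart by choroid plexus and striatal markers. The 7 choroid plexus markers found, TTR foremost, summed to 29.8 and 3.84 CPM in the sevoflurane female and male libraries, against 69.5 and 18260 CPM in the control female and male libraries. SLC22A8 (21.1 CPM) and SLC13A4 (34.9 CPM) also lay higher in the control female library than in either sevoflurane library (at most 0.274 and 1.39 CPM). CLIC6 lay lower there, and 3 of the 5 choroid plexus markers tested were called lower in sevoflurane. The 4 striatal markers found summed to 129 and 204 CPM in sevoflurane libraries, against 218 and 1534 CPM in the control female and male libraries. That sum was mostly PPP1R1B, while DRD1, another of the 4, was called higher in sevoflurane. The 7 listed microglial markers moved with the condition. Of these, 6 were called lower, with sums of 138.6 and 142.6 CPM in sevoflurane libraries, against 414 and 385 CPM in control libraries. PTPRC, a leukocyte gene outside the list, was called higher (log2 fold change 2.69 ± 0.62, edgeR adjusted p = 0.0169). The part of these cell types in the results below was not tested. Values without the control male library are given for some genes, but the control female library differed in choroid plexus markers as well. In bulk tissue, fewer cells of a type and less RNA per cell cannot be told apart.

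The clock genes that were called did not share one direction. Among the 10 members, CLOCK, RORA, PER3 and NR1D2 were called higher in sevoflurane libraries, DBP was called lower, and PER1, PER2, CRY1, CRY2 and NR1D1 were not called. That is 4 of 10 higher and 1 of 10 lower, beside 21.3% and 19.4% of all tested genes. The median log2 fold change of the members was 1.07, beside 0.0040 for all tested genes, and the members ranged from −1.99 to 5.37. Among the 9 members with reads in every library, 8 had the same direction in females and in males, and NR1D1 did not.

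**Figure D1:**
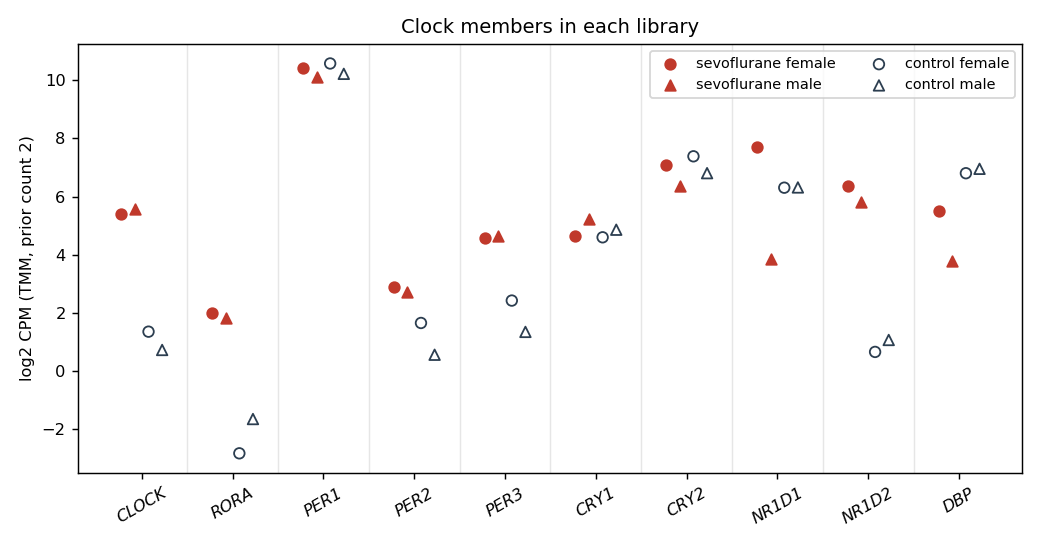
The y axis gives log2 CPM with TMM scaling and a prior count of 2, and each point is 1 library, filled for sevoflurane and open for control, with circles for females and triangles for males. Both sevoflurane points lie above both control points for CLOCK, RORA, PER2, PER3 and NR1D2 and below them for DBP, while the sevoflurane female and male points of NR1D1 lie on either side of the control points.

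In the activating arm, CLOCK (ENSMMUG00000001919), the DNA-binding partner of BMAL1, was scarce in controls. CLOCK stood at 41.7 and 47.1 CPM in the sevoflurane female and male libraries, against 2.41 and 1.51 CPM in the control female and male libraries. These were 659 and 687 reads against 37 and 17 reads, and the groups were far apart. CLOCK averaged 44.4 ± 3.87 CPM in sevoflurane and 1.96 ± 0.640 CPM in control libraries (SD, n = 2 each), which is 4.48 ± 0.40 in log2 (SE, edgeR adjusted p = 0.00171). It lay above 97.1% of all tested genes by log2 fold change. Leaving out any 1 library kept it between 4.17 (control male left out) and 4.895 (control female left out).

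RORA (ENSMMUG00000018192), a nuclear receptor that activates ARNTL, had 60 and 50 reads in the sevoflurane female and male libraries, against 0 and 2 reads in the control female and male libraries. It was thus close to undetected in controls, and it was at 3.79 and 3.43 CPM in the sevoflurane libraries. The ratio of sevoflurane to control was 48.2 (95% exact counting interval 13.0 to 403), and RORA was called higher (edgeR adjusted p = 0.0120). With the control female library left out the ratio was 20.4 (5.52 to 171). With the control male left out instead, RORA was at least 18.5-fold higher, against a floor of 3 reads or 0.196 CPM in the remaining control library. The call was lost without the sevoflurane female (adjusted p = 0.0575) or the sevoflurane male library (0.0622).

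Among the PER genes, repressors that differ in how they are induced, only PER3 was called, while PER2 missed the threshold and PER1 hardly differed. PER1 (ENSMMUG00000021798), which is also an immediate early and glucocorticoid-induced gene in mammals, stood at 1375 and 1102 CPM in the sevoflurane female and male libraries, against 1525 and 1190 CPM in the control female and male libraries. The groups overlapped, and PER1 differed by a log2 of −0.13 ± 0.29 (edgeR adjusted p = 0.739). Its direction turned with library totals in place of TMM, where the value was 0.10. PER2 (ENSMMUG00000018930) stood at 7.33 and 6.38 CPM in the sevoflurane female and male libraries, against 3.00 and 1.33 CPM in the control female and male libraries. Both sevoflurane libraries lay above both controls, but on 116 and 93 reads against 46 and 15 reads the log2 fold change of 1.65 ± 0.61 was not called (edgeR adjusted p = 0.0698). PER2 passed the threshold under several other settings, among them DESeq2 (adjusted p = 0.0470) and a fit without the control female library (0.0300).

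PER3 (ENSMMUG00000018562), a paralog that is dispensable for rhythm in mice, stood at 23.6 and 24.8 CPM in the sevoflurane female and male libraries, against 5.21 and 2.39 CPM in the control female and male libraries. The sevoflurane libraries were nearly equal and the groups did not overlap. PER3 averaged 24.2 ± 0.841 CPM in sevoflurane and 3.80 ± 1.99 CPM in control libraries (SD, n = 2 each), or 2.66 ± 0.48 in log2 (edgeR adjusted p = 0.00775). Leaving out the control female library gave 3.36 and leaving out the control male gave 2.18, and PER3 was called in both fits.

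The CRY genes, which encode the repressors that bind CLOCK and BMAL1 directly, were not called. CRY1 (ENSMMUG00000021808) stood at 24.8 and 37.3 CPM in the sevoflurane female and male libraries, against 24.1 and 28.8 CPM in the control female and male libraries. The groups overlapped, at 0.23 ± 0.33 in log2 (edgeR adjusted p = 0.605), and the sign turned without the sevoflurane male library (−0.088). CRY2 (ENSMMUG00000002453) stood at 136.6 and 81.6 CPM in the sevoflurane female and male libraries, against 166.7 and 111.4 CPM in the control female and male libraries. Its groups overlapped as well, at −0.35 ± 0.35 (edgeR adjusted p = 0.455), and both males lay below the females.

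The NR1D pair, repressors of ARNTL that are themselves switched on by CLOCK and BMAL1, parted from each other. NR1D2 (ENSMMUG00000022240, REV-ERB beta) stood at 81.1 and 56.0 CPM in the sevoflurane female and male libraries, against 1.43 and 1.95 CPM in the control female and male libraries. Each control library held 22 reads, while the sevoflurane female and male libraries held 1283 and 816. NR1D2 averaged 68.5 ± 17.8 CPM in sevoflurane and 1.69 ± 0.365 CPM in control libraries (SD, n = 2 each). Its log2 fold change of 5.34 ± 0.41 (edgeR adjusted p = 0.00141) lay above 98.7% of tested genes. Leaving out any 1 library kept it between 5.06 and 5.59.

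NR1D1 (ENSMMUG00000002933, REV-ERB alpha) stood at 208.0 and 14.3 CPM in the sevoflurane female and male libraries, against 78.8 and 79.2 CPM in the control female and male libraries. The controls were alike, and the sevoflurane female lay above them while the sevoflurane male lay below. Its log2 fold change of 0.49 ± 0.99 was not called (edgeR adjusted p = 0.714). The sign depended on the sevoflurane library that was used. Without the sevoflurane female library NR1D1 was called lower at −2.45 ± 0.33 (adjusted p = 0.0106), and without the sevoflurane male library it was called higher at 1.40 ± 0.27 (adjusted p = 0.0257).

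NR1D1 overlaps THRA, a thyroid hormone receptor gene, in the RefSeq annotation of the T2T-MMU8v2.0 assembly, and whether counting used strand is not stated in the labels. Its counts are therefore uncertain to that extent. THRA stood at 591 and 540 CPM in the sevoflurane female and male libraries, against 815 and 648 CPM in the control female and male libraries. The part of THRA reads in the counts of NR1D1 was not tested. PER3 and CRY1 each overlap 1 annotated long noncoding RNA gene there and RORA overlaps 5 annotated genes, 3 of them long noncoding, with the same limit.

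DBP (ENSMMUG00000022160), the output factor, was the member called lower. It stood at 45.3 and 13.7 CPM in the sevoflurane female and male libraries, against 111.3 and 123.5 CPM in the control female and male libraries. Both sevoflurane libraries lay below both controls, but the sevoflurane pair differed by more than the control pair. DBP averaged 29.5 ± 22.4 CPM in sevoflurane and 117.4 ± 8.61 CPM in control libraries (SD, n = 2 each), or −1.99 ± 0.54 in log2 (edgeR adjusted p = 0.0290). Only 8.45% of tested genes lay lower. The value was −3.09 without the sevoflurane female library and −1.37 without the sevoflurane male library, and DBP was called lower in both fits.

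**Figure D2:**
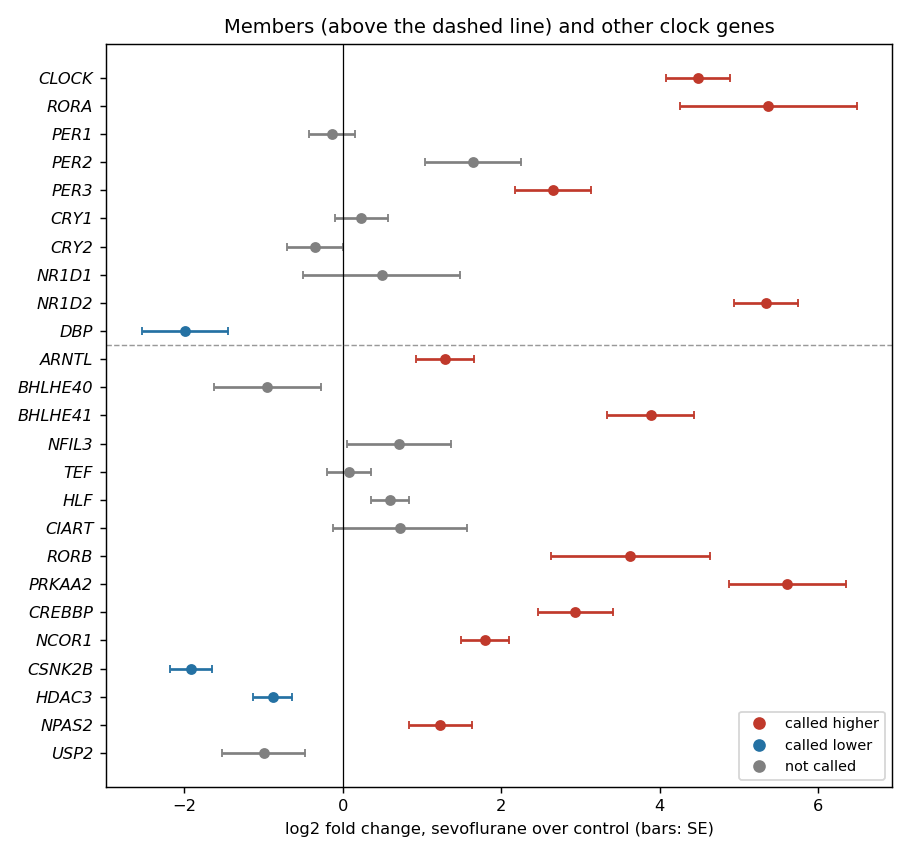
Points give the log2 fold change of sevoflurane over control and bars its SE, for the 10 members above the dashed line and other clock genes below it, coloured by call. CLOCK, RORA, PER3 and NR1D2 lie between 2.66 and 5.37 while DBP lies at −1.99, and the widest bars belong to RORA, whose fitted value rests on 2 control reads, to RORB and to NR1D1.

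Ratios of reads between members within a library do not depend on how libraries are scaled. They are given in log2 and are compared between libraries only, since transcript lengths differ between genes. The ratio of DBP to CLOCK was 0.12 and −1.78 in the sevoflurane female and male libraries, against 5.51 and 6.32 in the control female and male libraries. The mean difference was −6.74, and it stayed between −7.70 and −5.79 when any 1 library was left out. The ratio of NR1D1 to NR1D2 was 1.36 and −1.96 in the sevoflurane female and male libraries, against 5.75 and 5.31 in the control female and male libraries, a mean difference of −5.83. The ratio was lower with sevoflurane in both sexes.

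The ratio of PER1 to PER3 was 5.86 and 5.47 in the sevoflurane female and male libraries, against 8.18 and 8.93 in the control female and male libraries, a mean difference of −2.89. The ratio of PER2 to PER3 was −1.68 and −1.95 in the sevoflurane female and male libraries, against −0.79 and −0.83 in the control female and male libraries, a mean difference of −1.01. In these 4 pairs the groups did not overlap, but the share of pairs without overlap among all tested genes was not counted. The ratios reuse the reads of the members described above, so they are not separate support. With 2 libraries against 2 an exact two-sided permutation test cannot go below p = 0.333, which is the p of all 4 pairs, so these differences stand as descriptions. The ratio of CRY2 to CRY1 overlapped between the groups, with a mean difference of −0.58 (exact permutation p = 0.667). That of RORA to CLOCK rested on 0 and 2 control reads of RORA and was not separated either (0.91, exact permutation p = 1).

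**Figure D3:**
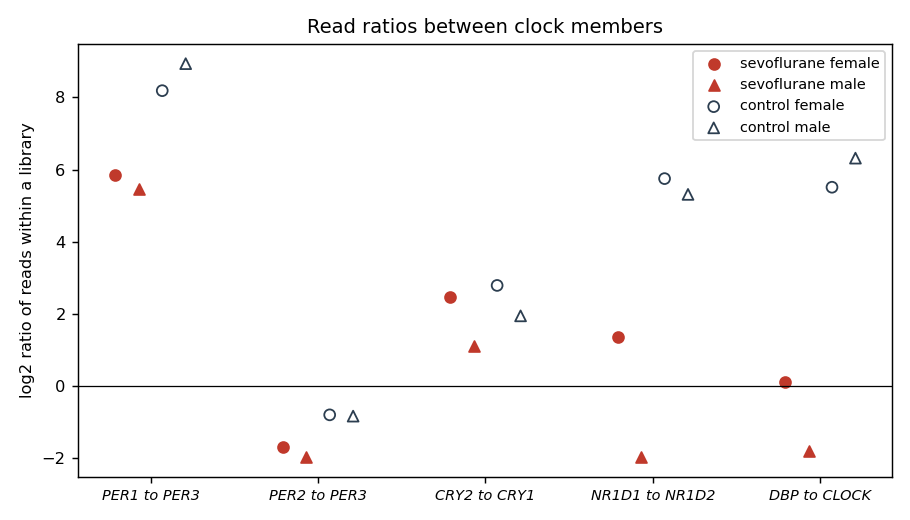
The y axis gives the log2 ratio of reads of the first to the second gene within each library, with filled symbols for sevoflurane and open symbols for control. The sevoflurane points lie below the control points for PER1 to PER3, PER2 to PER3, NR1D1 to NR1D2 and DBP to CLOCK, and overlap with them for CRY2 to CRY1.

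Changes within each sex set 1 sevoflurane library against 1 control library, so they carry counting intervals and no test. NR1D1 was 2.64-fold higher in the sevoflurane female than in the control female (95% exact counting interval 2.47 to 2.82), and 5.52-fold lower in the sevoflurane male than in the control male (4.74 to 6.45). DBP was 2.46-fold lower in the female pair (2.25 to 2.68) and 9.05-fold lower in the male pair (7.79 to 10.5). CLOCK was 17.3-fold higher in the female pair (12.4 to 24.8) and 31.3-fold higher in the male pair (19.4 to 54.0). NR1D2 was 56.6-fold higher in the female pair (37.2 to 90.6) and 28.7-fold higher in the male pair (18.8 to 46.1). The sexes therefore shared the direction of CLOCK, NR1D2 and DBP and not that of NR1D1. Whether the sexes differed in their change was not tested, because 4 libraries leave no residual degree of freedom for that term. Across all tested genes, 14.7% had opposite directions in the female and male pairs.

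Within the sevoflurane group, the male library was lower than the female in NR1D1 by 14.5-fold (95% exact counting interval 12.6 to 16.8) and in DBP by 3.32-fold (2.83 to 3.90). On log2 CPM, only 0.143% of tested genes had a lower male minus female difference than NR1D1 in this pair, and 2.82% had a lower one than DBP. In the control group the male to female ratio was 1.005 for NR1D1 (0.920 to 1.10) and 1.11 for DBP (1.03 to 1.19). CLOCK stood at a male to female ratio of 1.13 within sevoflurane (1.02 to 1.26), and PER3 at 1.05 (0.906 to 1.22), so the gap between the sevoflurane libraries was not shared by all members.

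**Figure D4:**
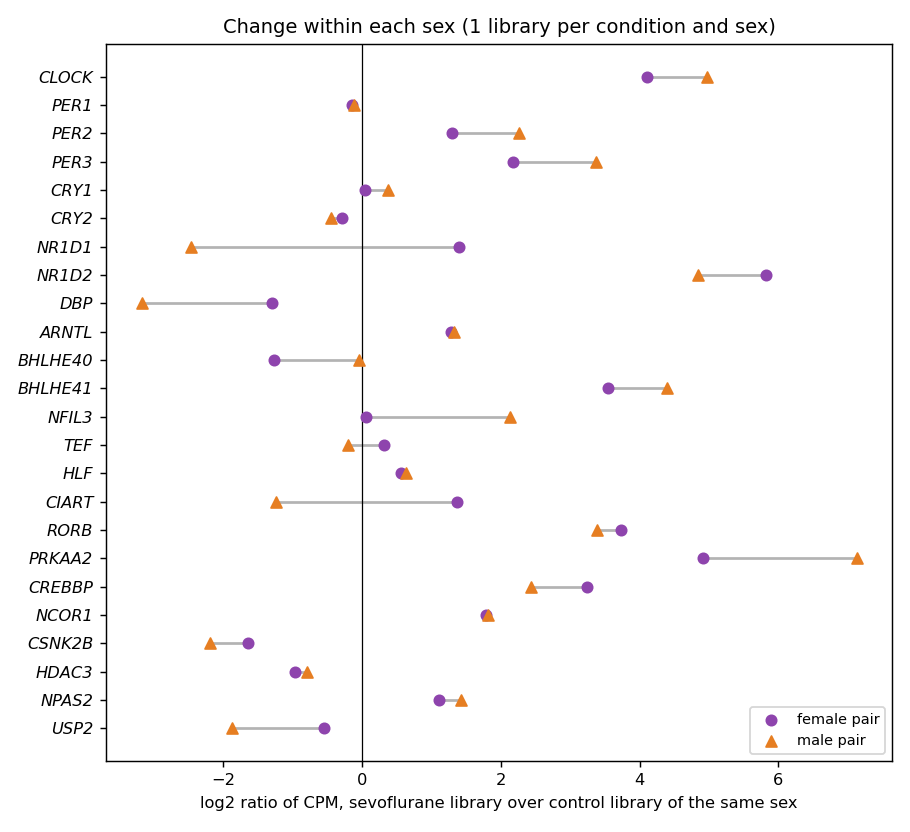
Each row is 1 gene, with the log2 ratio of the sevoflurane to the control library for females (circles) and for males (triangles), 1 library each. RORA is left out because it had 0 reads in the control female library. The 2 symbols lie on opposite sides of 0 for NR1D1, CIART and TEF, and they lie farthest apart for NR1D1.

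Males were compared with females across both conditions, with condition as a term. Of the 10 members 0 were called by edgeR, beside 1.84% of all tested genes. At an unadjusted p under 0.05 there were 2 of the 10 members, beside 1673 of the 15417 tested genes. DESeq2 also called 0. The largest difference was that of NR1D1, at a log2 of −1.90 ± 0.66 for male over female (edgeR adjusted p = 0.216). NR1D1 was called without a filter on low counts (edgeR adjusted p = 0.000122). For sevoflurane over control, that setting lowered the SE of NR1D1 from 0.99 to 0.34 at nearly the same log2 value. That p may therefore understate the spread of NR1D1 between libraries. CRY2 was at −0.66 ± 0.29 (edgeR adjusted p = 0.388), with the male library below the female in both conditions.

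The other clock transcription factors were described from a list of 12, of which 11 were tested. Of these, 4 were called higher and 0 lower by edgeR (0 lower at an unadjusted p under 0.05), which is 36.4% higher beside 21.3% higher and 19.4% lower over all tested genes, with a median log2 fold change of 1.20 beside 0.0040 for all tested genes. ARNTL, the partner of CLOCK, stood at 101.3 and 64.6 CPM in the sevoflurane female and male libraries, against 41.8 and 25.9 CPM in the control female and male libraries. Its log2 fold change of 1.29 ± 0.37 was called (edgeR adjusted p = 0.0325), but the call was lost without the control male library (0.95) or the sevoflurane female library (0.94). NPAS2, which can stand in for CLOCK in the forebrain of mice, stood at 57.4 and 39.4 CPM in the sevoflurane female and male libraries, against 26.5 and 14.6 CPM in the control female and male libraries. NPAS2 was called higher at 1.23 ± 0.40 (edgeR adjusted p = 0.0481) and was named after its values were seen. Its call was lost without the control male or either sevoflurane library.

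BHLHE41 (DEC2), a repressor that competes for E-boxes, stood at 12.1 and 13.0 CPM in the sevoflurane female and male libraries, against 1.04 and 0.621 CPM in the control female and male libraries. It was called higher at 3.89 ± 0.55 (edgeR adjusted p = 0.00381). Its paralog BHLHE40 (DEC1) was not called, at 37.4 and 20.3 CPM in the sevoflurane female and male libraries, against 90.7 and 20.9 CPM in the control female and male libraries. Without the control female library its log2 fold change was 0.48, against −0.95 ± 0.67 with all libraries. Without the control male library it was called lower, at −1.69. In the comparison of sexes BHLHE40 was called lower in males (−1.50 ± 0.36, edgeR adjusted p = 0.0416).

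RORB, a paralog of RORA, stood at 29.5 and 5.56 CPM in the sevoflurane female and male libraries, against 2.22 and 0.532 CPM in the control female and male libraries. It was called higher (3.63 ± 1.002, edgeR adjusted p = 0.0298), and in the comparison of sexes it was called lower in males (−2.27 ± 0.51, adjusted p = 0.0296). The first call was lost with limma-voom (adjusted p = 0.0727) and without the sevoflurane female library, at 2.00, and the value was 5.03 without the control female library. The number of called factors was 1 when the sevoflurane female library was left out, and 7 when the control female library was, while 29.6% and 35.9% of all tested genes were called in those fits, against 40.7% with all libraries.

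Among output factors related to DBP, TEF stood at 233 and 159.8 CPM in the sevoflurane female and male libraries, against 188 and 184 CPM in the control female and male libraries, and was not called (0.079 ± 0.28). HLF stood at 233 and 237 CPM in the sevoflurane female and male libraries, against 159 and 152 CPM in the control female and male libraries. It did not overlap between groups but was not called (0.60 ± 0.24, edgeR adjusted p = 0.0863), and it was called with library totals in place of TMM (0.83). NFIL3, a repressor that binds the same D-box as DBP, stood at 26.4 and 24.1 CPM in the sevoflurane female and male libraries, against 25.3 and 5.50 CPM in the control female and male libraries. It was not called (0.71 ± 0.66), was at −0.035 without the control male library and was called higher without the control female library (2.22). These 3 D-box factors were thus not called, and their difference from DBP was not tested.

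CIART (CHRONO), a repressor of CLOCK and BMAL1 that is itself driven by E-boxes, also lay above the controls in the sevoflurane female and below them in the sevoflurane male. It stood at 51.0 and 6.31 CPM in the sevoflurane female and male libraries, against 19.8 and 14.9 CPM in the control female and male libraries. It was not called (0.72 ± 0.84, edgeR adjusted p = 0.520), was called higher without the sevoflurane male library (1.56) and stood at −1.45 without the sevoflurane female library. Within sevoflurane its male library was 8.07-fold below its female (95% exact counting interval 6.50 to 10.1), a difference below which lay 0.415% of tested genes. USP2, a clock-controlled ubiquitin protease named after its values were seen, stood at 42.0 and 13.5 CPM in the sevoflurane female and male libraries, against 61.3 and 49.6 CPM in the control female and male libraries. It was not called (−0.997 ± 0.53), and it was called lower without the sevoflurane female library (−2.03).

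The enzymes and coregulators that act on clock proteins were described from a list of 22, of which 21 were tested. Of these, 11 were called higher (52.4%) and 2 lower (9.52%), beside 21.3% and 19.4% of all tested genes. Their median log2 fold change was 1.03, beside 0.0040 for all tested genes. The count of 13 called was 6 with either male library left out, where 21.5% (sevoflurane male left out) and 28.7% (control male left out) of all tested genes were called. PRKAA2, a catalytic subunit of AMPK, which phosphorylates CRY1 in mice, stood at 9.80 and 12.4 CPM in the sevoflurane female and male libraries, against 0.326 and 0.0887 CPM in the control female and male libraries. Its log2 fold change was 5.61 ± 0.73 (edgeR adjusted p = 0.00322), on 155 and 181 reads against 5 and 1 reads, and it was 6.85 without the control female library. CREBBP, an acetyltransferase coactivator, stood at 81.9 and 36.4 CPM in the sevoflurane female and male libraries, against 8.67 and 6.74 CPM in the control female and male libraries. It was called higher at 2.94 ± 0.47 (edgeR adjusted p = 0.00544) and was 2.25 without the sevoflurane female library. NCOR1, the corepressor recruited by NR1D proteins, stood at 181 and 135 CPM in the sevoflurane female and male libraries, against 52.7 and 38.5 CPM in the control female and male libraries, and was called higher at 1.79 ± 0.30 (edgeR adjusted p = 0.00615).

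HDAC3, the deacetylase that acts with NCOR1, was called lower. It stood at 46.9 and 49.4 CPM in the sevoflurane female and male libraries, against 91.8 and 85.6 CPM in the control female and male libraries (−0.88 ± 0.24, edgeR adjusted p = 0.0305). Its call was lost with library totals (−0.65) and when any 1 library was left out. CSNK2B, the regulatory subunit of casein kinase 2, was called lower at −1.92 ± 0.27 (adjusted p = 0.00375), and kept its call and direction in all alternatives. It stood at 67.8 and 54.7 CPM in the sevoflurane female and male libraries, against 212 and 250.3 CPM in the control female and male libraries.

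The genes with the profiles most like those of CLOCK and DBP were sought by the Euclidean distance between log2 CPM values over the 4 libraries, centred on each gene's mean. Nearest to CLOCK were ANKRD28 (distance 0.056), TMEM170B (0.115) and ZNF708 (0.128). ANKRD28 stood at 48.2 and 56.7 CPM in the sevoflurane female and male libraries, against 2.93 and 1.86 CPM in the control female and male libraries. Nearest to DBP were SELENBP1 (0.103), CARD9 (0.160) and GSTZ1 (0.163). SELENBP1 stood at 20.2 and 6.38 CPM in the sevoflurane female and male libraries, against 55.1 and 58.8 CPM in the control female and male libraries. How common such near matches are among the 15417 genes over 4 libraries was not counted, and these distances are descriptions.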

How the data were processed

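RNA from 4 amygdala libraries, 2 per condition, was analysed. The authors deposited raw read counts per Ensembl macaque gene ID, not normalized. The submitters' processing notes name HISAT2 as a tool, with no version. The genome build, counting program and strand setting were not given in the sources used here. Samples were grouped by their treatment label. Replicate 1 is the female and replicate 2 the male of each group, and these numbers are only names. The labels give a sex for each library but do not otherwise state separate animals. The p-values thus measure the spread between these libraries, which includes the sex difference. Of the 35395 IDs, 24173 had a symbol in a table of gene IDs.

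Genes were filtered with edgeR 4.0.16 (filterByExpr, minimum count 10), scaled by TMM and tested with the quasi-likelihood F-test in R 4.3.3. Sevoflurane over control had condition as the only term (2 residual degrees of freedom), and male over female had condition and sex (1 residual degree of freedom). SEs were derived from the F statistic. Library totals were 14413858 and 13615927 reads in the sevoflurane female and male, and 16293371 and 12477047 in the control female and male. Intervals are exact at 95% and, like the floor of 3 reads, cover counting error only. Read ratios used a pseudocount of 0.5. Alternatives were library totals, DESeq2 size factors, DESeq2 1.42.0, limma-voom (limma 3.58.1), no filter, at least 5 CPM in 2 libraries, sex as a block and leaving out each library.

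The members and lists were chosen with earlier results of these data known. All members are named, with 7 transcription factors fixed by role, the 3 called genes of smallest p in each direction of each list, and NPAS2 and USP2, named after their values were seen. The other marker sums, in CPM in the order sevoflurane female, sevoflurane male, control female, control male, were 1313, 1381, 1642 and 1404 for excitatory neurons, 897, 627, 1379 and 1043 for inhibitory neurons, 2882, 3695, 4007 and 3529 for astrocytes, 3031, 3961, 1474 and 6378 for oligodendrocytes, 122.6, 117.5, 159.6 and 207 for endothelium, 1.20, 1.23, 7.95 and 28.5 for red blood cells, and 19.9, 13.7, 27.8 and 35.1 for thalamus and hypothalamus. RefSeq coordinates of T2T-MMU8v2.0 served only to find annotated genes that overlap a member, and sequences and gene lengths were not used here.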

Additional observations from a re-analysis of the deposited data

Results flagged for a closer look

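In all, 3 genes of the clock were flagged because the sevoflurane library lay above the control library in females and below it in males, a difference between the sexes that was not tested. For NR1D1 the log2 ratio of sevoflurane over control was 1.40 in females and −2.46 in males. For CIART it was 1.36 in females and −1.24 in males. For TEF it was 0.31 in females and −0.20 in males. Opposite directions were found for 14.7% of all tested genes. The direction was the same in 8 of the 10 members, where RORA could not be compared. It was also the same in 9 of 11 tested other transcription factors and in 21 of 21 tested enzymes and coregulators.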

How the results depend on the processing

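CLOCK, NR1D2, PER3 and DBP kept their direction and their call under all 11 alternatives, and CRY2 kept its direction and stayed uncalled. Values that turned were PER1 with library totals (0.10) and NR1D1 with limma-voom (−0.51) and with the replicate block, sex as a term (−0.49). Leaving out 1 library gave −0.33 to 0.078 for PER1, −0.088 to 0.51 for CRY1, −2.45 to 1.40 for NR1D1, −1.69 to 0.48 for BHLHE40, −0.035 to 2.22 for NFIL3, −0.21 to 0.33 for TEF and −1.45 to 1.56 for CIART, in log2. It gave −1.24 to 0.091 for the ratio of CRY2 to CRY1 and −0.80 to 2.62 for that of RORA to CLOCK. It gave 3 to 5 members called higher and 1 to 2 called lower, 1 to 7 other transcription factors, 6 to 13 enzymes and coregulators, and 3469 to 5800 genes in all, of which 3469 was without the sevoflurane male library. In these fits the lone library of a group is assumed to vary like the other group. Without a filter 7 of the 12 other transcription factors were called, beside 33.7% of all genes tested in that fit. Between the sexes 603 genes and 1 member (NR1D1) were called without a filter, and 0 genes and 0 members by edgeR with sex as the only term (168 and 0 at an unadjusted p under 0.05), against 283 and 0. Leaving out a library there leaves no residual degree of freedom. With the replicate block 7825 genes were called, against 6278, and 5 members were called higher, PER2 among them (adjusted p = 0.0249). Male minus female differences in sevoflurane and control libraries correlated at r = 0.325 across genes, which are not independent replicates. Library totals moved the median of all genes to 0.24 and the share of calls that were higher to 63.3%, against 52.3%. RORA was not tested at 5 CPM. Depth limited RORA most, with 0 and 2 control reads. The causes of these changes were not tested.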
